A study of Mus musculus with 12 samples.

Results

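Mouse embryonic stem cells (mESC) labelled EED-/- were compared with WT mESC across genes, before any differentiation. EED is a core subunit of Polycomb repressive complex 2 (PRC2), which methylates lysine 27 of histone H3. PRC2 holds developmental regulators in a silent state in stem cells, and EED binds the methylated lysine and is required for the activity of the catalytic subunit. A second complex, PRC1, reads the mark through its CBX subunits and compacts the silent genes. The comparison asked what the loss of EED changes in undifferentiated cells. It took 4 of the 12 RNA-seq libraries of the series, 2 of each genotype, and the genes of at least 1 FPKM (fragment counts corrected for the length of the transcript and the size of the library) in at least 2 of those 4, which were 12637 of the 21253 genes deposited. All 4 cultures were kept undifferentiated with LIF in medium with 15% serum on gelatin, with no treatment. WT is the E14 line, and the line labelled EED-/- had been made earlier. The labels give neither its allele nor its parental line, each genotype is 1 line, and so genotype and line cannot be told apart. The other 8 libraries are anterior neural progenitors (AntNPC), 4 of each genotype, made from the same lines by 5 days without serum, with bFGF at 10 ng/ml and then the WNT inhibitor Xav939 at 5 uM. The labels do not say whether replicates were separate cultures, so each p-value measures only the spread between these libraries, which may be technical.

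The 4 mESC libraries did not group by genotype. Across genes WT 2 correlated with EED-/- 1 at 0.933, above its correlation of 0.874 with WT 1, while WT 1 and EED-/- 2 correlated at 0.877 and EED-/- 1 and EED-/- 2 at 0.901. WT 2 and EED-/- 1 had FPKM sums of 864235 and 788753 and gave 34.0% and 26.4% of them to ribosomal protein genes. WT 1 and EED-/- 2 had sums of 453550 and 475689 and shares of 16.4% and 10.8%. Short transcripts were higher in WT 2 than in WT 1 and long ones lower, and EED-/- 1 differed from EED-/- 2 in the same way. For genes whose longest annotated transcript is at most 1 kb, the median log2 difference was 0.71 in WT and 0.91 in EED-/-, and for those over 8 kb it was -0.81 and -0.87. The difference between the genotype means ran from 0.19 to 0.29 over the 5 length classes, and each genotype holds 1 library of each kind. The median SD between replicates was 0.51 in WT and 0.38 in EED-/- mESC on the log2 scale, against 0.13 in both AntNPC groups. What sets the libraries apart was not tested. Differences are therefore also given within the like pairs, EED-/- 1 minus WT 2 and EED-/- 2 minus WT 1.

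**Figure D1:**
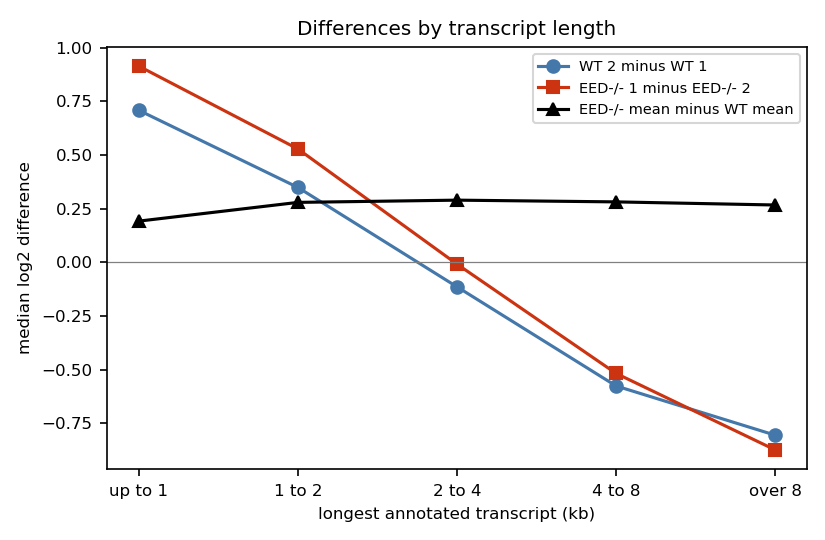
Median log2 difference, log2(FPKM + 1), by length of the longest annotated transcript in kb, between the replicates of each genotype and between the genotype means. The lines between replicates fall from 0.71 and 0.91 at up to 1 kb to -0.81 and -0.87 over 8 kb, while the line of the genotype means stays between 0.19 and 0.29.

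Eed RNA did not check the labels. Its level was 66.2 and 163 FPKM in WT and 644 and 376 FPKM in the libraries labelled EED-/-. The level was thus higher in both libraries labelled EED-/-, which goes against the label if the allele removes the transcript, and an allele that leaves the transcript would not be seen at this level. Every direction here rests on the labels. Hprt, the X-linked purine salvage enzyme that is deleted in the widely used E14TG2a derivative of E14, was at 0.469 and 0.556 FPKM in WT and at 82.8 and 76.4 FPKM in EED-/-. Mid1, a microtubule-associated ubiquitin ligase at the pseudoautosomal boundary of the X, was at 304 and 350 FPKM in WT and at 1.29 and 2.62 FPKM in EED-/-. Both genes separated the lines without overlap. All 7 mESC markers checked (Pou5f1, Nanog, Sox2, Zfp42, Esrrb, Klf4 and Tfcp2l1) were above 1 FPKM in every library, with summed levels of 1188 and 2332 FPKM in WT and 1408 and 1241 FPKM in EED-/-.

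More genes were higher than lower in mESC labelled EED-/-. By limma with a spread pooled over all 4 groups of the series, 2574 genes rose (20.4% of those described) and 371 fell (2.94%). "Rose" and "fell" mean a Benjamini-Hochberg adjusted p under 0.05 in that fit, on the log2(FPKM + 1) scale, which understates the change of low genes. Of these, 1697 rose and 194 fell at least 2-fold. The median of all genes was 0.28, and quantile normalization, which makes the distributions of the libraries equal, set it to -0.04. Under it 1202 genes rose (9.51%) and 1048 fell (8.29%), so the share of calls that were rises was 87.4% in the main fit and 53.4% there. The pooled spread takes most of its information from the tighter AntNPC libraries and so understates the error in mESC. With one variance for each group, 130 genes rose (1.03%) and 7 fell (0.0554%), all of them also called in the main fit. These calls are named below as passing the stricter test. All moved the same way in both like pairs, which adds no support. In the main fit the groups already did not overlap for 2572 of the 2574 rises and for each of the 371 falls. A limma fit to the 4 mESC libraries by themselves called 0 genes, with 1486 at an unadjusted p under 0.05 and a smallest adjusted p of 0.0528. Both counts of the main fit grew without either WT library, where the lone WT library is assumed to vary like the other groups.

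**Figure D2:**
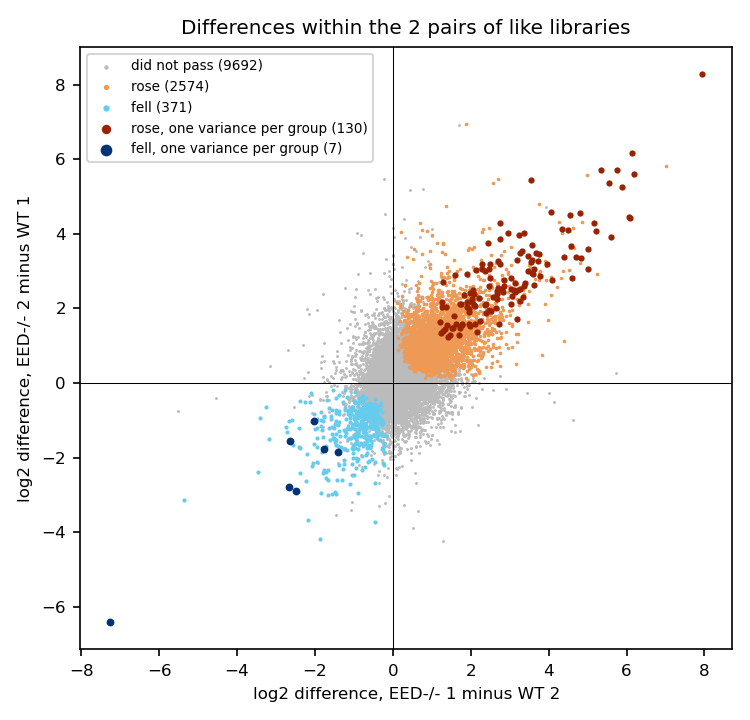
Log2 difference, log2(FPKM + 1), of each of the 12637 genes in the pair EED-/- 1 minus WT 2 against the pair EED-/- 2 minus WT 1. The 130 genes that rose and the 7 that fell with one variance per group lie at the upper right and lower left.

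Without overlap between the groups, 3929 genes were higher in EED-/- (31.1%) and 910 lower (7.2%). The rises came from genes at low and intermediate WT levels. Of the 2574, 681 were under 1 FPKM in both WT libraries, while 1175 had a WT mean from 1 to 10 FPKM and 570 from 10 to 100 FPKM. Of the 130 stricter rises, 84 had a WT mean under 1 FPKM. A gene that low could be described only through the EED-/- libraries, so these counts are a description. Among the 963 genes with a WT mean above 100 FPKM, 15 rose and 35 fell.

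The largest rise was that of Igf2, an imprinted growth factor of the fetus and placenta (chromosome 7, 142650766 to 142666816, GRCm38). It was at 1.10 and 4.88 FPKM in WT and at 1452 and 653 FPKM in EED-/-, a log2 difference of 8.11 ± 0.47 (SE; limma adjusted p = 1.9e-06, and 0.00367 with one variance per group). Both EED-/- libraries were far above both WT libraries. Hand1, a transcription factor of trophoblast giant cells and extraembryonic mesoderm, was at 0.346 and 0.316 FPKM in WT and at 169 and 75.2 FPKM in EED-/-, a difference of 6.42 ± 0.45. Its adjusted p was 5.48e-06, and 0.0617 in the stricter test. Tinagl1, a matrix protein related to tubulointerstitial nephritis antigen, was at 3.45 and 1.30 FPKM in WT and at 156 and 95.5 FPKM in EED-/-. Ly6a, the surface antigen Sca-1, was at 0.115 and 0.766 FPKM in WT and at 62.5 and 20.8 FPKM in EED-/-. Tnnt3, a troponin of fast skeletal muscle, was at 0.144 FPKM and listed at 0 in WT, and was at 47.2 and 16.2 FPKM in EED-/-. Tinagl1, Ly6a and Tnnt3 all passed the stricter test (adjusted p = 0.00537, 0.00367 and 0.0226). The largest rises also held Rhox6, Krt8, Hprt, Rhox9, Acta2 and Krt18.

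**Figure D3:**
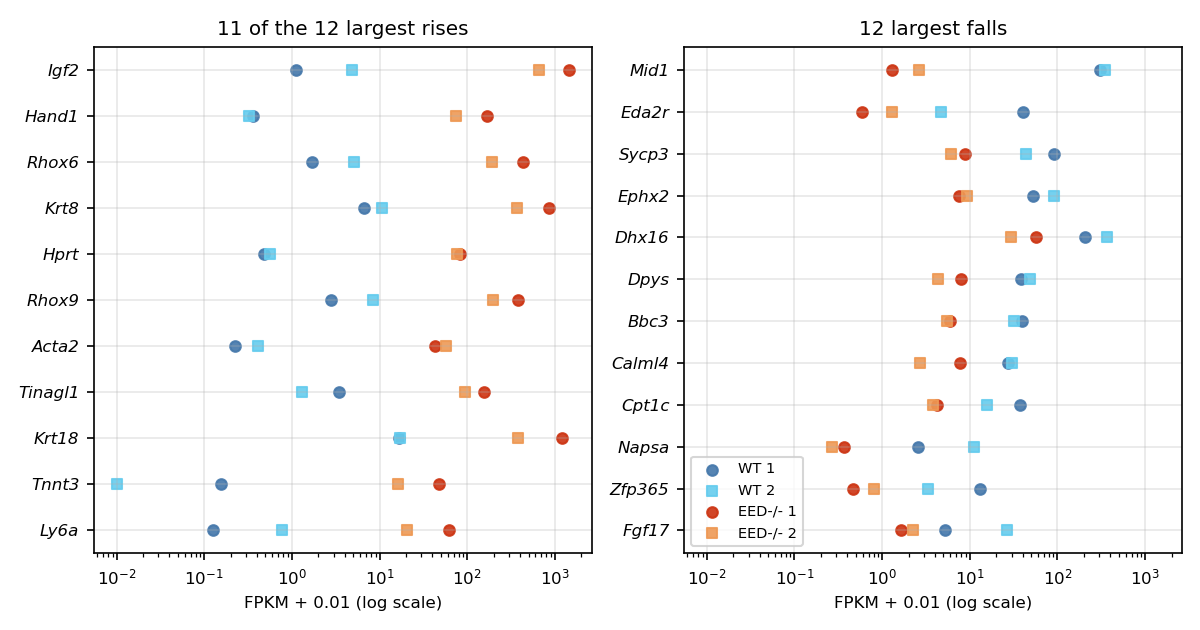
FPKM plus 0.01 on a log axis in each of the 4 mESC libraries for 11 of the 12 largest rises (left) and the 12 largest falls (right), where points at 0.01 are libraries listed at 0. Only genes whose groups do not overlap were eligible, so WT and EED-/- points are apart in every row by selection. Igf2 is at 1.10 and 4.88 FPKM in WT against 1452 and 653 FPKM in EED-/-.

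A pair of keratin genes and a pair of collagen genes rose together and are shown by their promoters. In each pair the genes lie side by side and run away from each other, but the distance between their starts differs. Krt8 and Krt18 encode the keratins that pair in filaments of simple epithelia, and lie 23697 bases apart on chromosome 15. Col4a1 and Col4a2 encode the chains of the main type IV collagen of basement membranes, and start head to head on chromosome 8. Each sequence is 1 RefSeq window of 300 bases (GRCm38.p6), from 250 before to 50 after the annotated start, on the gene's strand, with each CG dinucleotide in capitals. The windows are chr15:102004293-102004592 (minus strand) for Krt8, chr15:102027966-102028265 (plus) for Krt18, chr8:11312777-11313076 (minus) for Col4a1 and chr8:11312555-11312854 (plus) for Col4a2.
Krt8: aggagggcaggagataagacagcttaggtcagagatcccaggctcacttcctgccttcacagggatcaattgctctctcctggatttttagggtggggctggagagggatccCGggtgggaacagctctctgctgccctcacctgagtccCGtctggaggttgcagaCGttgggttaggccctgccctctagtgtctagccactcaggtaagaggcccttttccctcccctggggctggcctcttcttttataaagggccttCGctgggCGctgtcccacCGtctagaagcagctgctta
Krt18: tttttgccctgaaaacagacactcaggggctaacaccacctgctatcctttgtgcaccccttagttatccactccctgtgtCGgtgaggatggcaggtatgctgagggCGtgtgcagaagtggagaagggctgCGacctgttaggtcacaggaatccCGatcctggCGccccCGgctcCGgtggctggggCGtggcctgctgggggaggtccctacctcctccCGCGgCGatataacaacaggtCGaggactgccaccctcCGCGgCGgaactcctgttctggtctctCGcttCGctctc
Col4a1: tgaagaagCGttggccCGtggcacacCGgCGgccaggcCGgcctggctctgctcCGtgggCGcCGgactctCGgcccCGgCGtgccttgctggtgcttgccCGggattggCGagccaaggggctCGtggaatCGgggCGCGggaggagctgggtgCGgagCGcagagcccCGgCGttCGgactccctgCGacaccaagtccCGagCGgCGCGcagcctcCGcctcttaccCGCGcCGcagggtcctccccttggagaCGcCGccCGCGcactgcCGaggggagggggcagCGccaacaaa
Col4a2: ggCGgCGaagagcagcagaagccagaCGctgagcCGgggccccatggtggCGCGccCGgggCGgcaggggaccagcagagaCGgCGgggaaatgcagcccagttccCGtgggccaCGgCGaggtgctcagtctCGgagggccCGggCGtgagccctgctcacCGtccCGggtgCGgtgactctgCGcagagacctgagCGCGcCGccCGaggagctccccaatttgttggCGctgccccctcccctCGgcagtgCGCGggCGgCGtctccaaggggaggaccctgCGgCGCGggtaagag
The windows of Col4a1 and Col4a2 share 78 bases. CG dinucleotides, which read the same on both strands, numbered 37 and 33 in them, against 17 in Krt18 and 6 in Krt8. Of the 32851 windows in the table, 5.6% hold at least as many as Col4a1, 8.6% as Col4a2, 31.4% as Krt18 and 56.4% as Krt8.

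Krt8 was at 6.58 and 10.8 FPKM in WT and at 867 and 372 FPKM in EED-/-, a log2 difference of 5.91 ± 0.35 (SE; limma adjusted p = 2.23e-06, stricter 0.004). Krt18 was at 16.5 and 17.0 FPKM in WT and at 1198 and 381 FPKM in EED-/-, a difference of 5.25 ± 0.42 (1.23e-05, stricter 0.0212). For both keratins EED-/- 1 was the highest library. Col4a1 was at 9.65 and 4.73 FPKM in WT and at 166 and 212 FPKM in EED-/-, a difference of 4.59 ± 0.35 (9.04e-06, stricter 0.0705). Col4a2 was at 4.32 and 1.73 FPKM in WT and at 74.8 and 125 FPKM in EED-/-, a difference of 4.68 ± 0.35 (7.1e-06, stricter 0.0282). For both collagens EED-/- 2 was the highest library and WT 2 the lowest. The groups did not overlap for any of the 4 genes, which held for 2572 of the 2574 rises. Over all described genes, 31.1% were higher in EED-/- without overlap.

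Among trophoblast genes, which build the placenta, 15 of the 21 described rose and 0 fell, and 7 passed the stricter test. Their median log2 difference was 2.24, against 0.28 over all genes. Over all genes described 20.4% rose, 2.94% fell and 1.03% rose in the stricter test, shares that apply beside each list. In this and the following lists a gene near 0 in WT entered only through the EED-/- libraries, so counts cover the members described and not the whole list. Plac1, a membrane protein of the placenta, was listed at 0 and at 0.0252 FPKM in WT and was at 19.6 and 16.5 FPKM in EED-/- (limma adjusted p = 2.03e-07, stricter 0.00367). Esx1, an X-linked homeobox gene of the placenta, was at 3.33 and 2.05 FPKM in WT and at 96.6 and 51.7 FPKM in EED-/-. Gata2, a regulator of trophoblast giant cells and blood, was at 5.01 and 0.645 FPKM in WT and at 39.1 and 41.8 FPKM in EED-/-. Bmp8b, a BMP ligand made by extraembryonic ectoderm, was at 0.598 and 0.242 FPKM in WT and at 10.0 and 9.29 FPKM in EED-/-. In each of these 4 genes the groups were well apart. The regulators of the trophoblast stem cell state were low: Cdx2 was at 0.0359 and 0.0741 FPKM in WT and at 1.80 and 1.46 FPKM in EED-/-. Eomes did not pass, at 2.24 and 2.96 FPKM in WT and at 3.53 and 4.07 FPKM in EED-/-. Elf5, which marks trophoblast commitment, was at 1.24 and 0.598 FPKM in EED-/-. Prl3d1 and Tpbpa, markers of differentiated trophoblast, were at most 0.0648 FPKM in every library. The summed level of 6 trophoblast markers was 2.42 and 3.55 FPKM in WT and 9.60 and 9.98 FPKM in EED-/-. Of the 6, 5 were under 1 FPKM in each WT library and 2 and 3 in the EED-/- libraries. In bulk RNA, more cells of a type and more RNA per cell cannot be told apart.

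Epithelial and cytoskeletal genes rose in 16 of 25 cases with 0 falls, against 20.4% and 2.94% of all genes described. Their median was 1.78, and 1 passed the stricter test. That one was Anxa3, a membrane-binding annexin, at 2.19 and 2.02 FPKM in WT and at 70.8 and 39.6 FPKM in EED-/- (limma adjusted p = 3.65e-06, stricter 0.0164). Acta2, smooth muscle actin, was at 0.217 and 0.401 FPKM in WT and at 43.0 and 56.8 FPKM in EED-/- (5.48e-06, stricter 0.1). Anxa1, a further annexin, was at 2.08 and 2.65 FPKM in WT and at 72.8 and 48.8 FPKM in EED-/- (5.32e-06, stricter 0.0517). Some of the most abundant members differed mainly in 1 library: S100a6, a calcium-binding protein, was at 30.7 and 138 FPKM in WT and at 2093 and 309 FPKM in EED-/-. Its EED-/- 2 value lay nearer to WT 2 than to EED-/- 1, and the call was lost without EED-/- 1. Cdh1, the adhesion protein E-cadherin of epithelia and stem cells, did not pass at 99.1 and 61.0 against 169 and 201 FPKM.

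**Figure D4:**
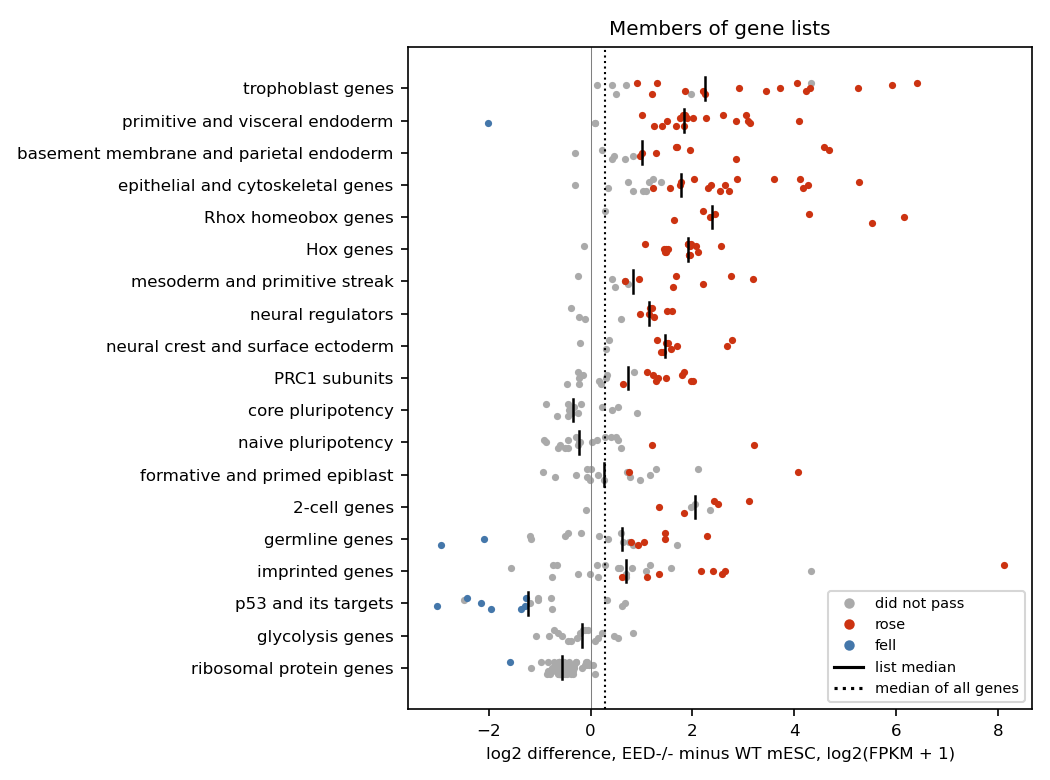
Log2 difference of each described member of 19 gene lists, EED-/- minus WT mESC on the log2(FPKM + 1) scale, coloured by limma call, with the list median as a bar and the median of all genes (0.28) as a dotted line. The medians of the trophoblast, Rhox and Hox lists are 2.24, 2.39 and 1.92, those of the core pluripotency and p53 lists -0.35 and -1.23; under quantile normalization the median of all genes is -0.04.

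Primitive and visceral endoderm genes mark the yolk sac lineage. Of 21 described, 18 rose and 1 fell, against 20.4% and 2.94% of all genes described. The median was 1.84, and 4 passed the stricter test. Sox17 and Gata4, transcription factors that specify primitive endoderm, went from 0.298 and 0.0579 FPKM to 12.04 and 7.07 FPKM and from 1.27 and 0.416 FPKM to 13.96 and 13.7 FPKM. Cited1, a transcriptional co-regulator of the yolk sac and placenta, was at 1.73 and 1.95 FPKM in WT and at 82.7 and 27.1 FPKM in EED-/-. Sox17, Gata4 and Cited1 were among the 4 that passed the stricter test (adjusted p = 0.0218, 0.0406 and 0.00774). Dkk1, a secreted WNT antagonist of the anterior endoderm, was at 0.0111 and 0.0458 FPKM in WT and at 7.53 and 8.05 FPKM in EED-/-. Dab2, an endocytic adaptor of primitive endoderm, was at 0.82 and 0.557 FPKM in WT and at 8.47 and 14.6 FPKM in EED-/-. The gene that fell was Apoe, the lipid carrier apolipoprotein E, from 519 and 695 FPKM to 217 and 102 FPKM (limma adjusted p = 0.00201). The products of mature visceral endoderm stayed low: Afp was at 1.65 and 0.614 FPKM in EED-/- and Ttr at 0.893 and 0.506 FPKM. The summed level of 7 primitive and visceral endoderm markers was 3.24 and 1.40 FPKM in WT and 44.4 and 42.9 FPKM in EED-/-, with 6 and 7 of them under 1 FPKM in WT against 1 and 2.

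Basement membrane and parietal endoderm genes rose in 9 of 15 cases, against 20.4% of all described genes. They had 0 falls and a median of 1.00. Beside the collagen pair, Sparc, a matrix glycoprotein abundant in parietal endoderm, was at 102 and 124 FPKM in WT and at 441 and 297 FPKM in EED-/- (limma adjusted p = 0.00107, stricter 0.488). Plat, tissue plasminogen activator, was at 0.943 and 0.274 FPKM in WT and at 7.88 and 13.6 FPKM in EED-/-. Lama1 and Lamb1, laminin chains, rose less, from 8.50 and 9.12 FPKM to 16.0 and 33.1 FPKM and from 38.9 and 26.9 FPKM to 60.3 and 68.6 FPKM. Thbd, a marker of parietal endoderm, was at 0.124 and 0.602 FPKM in EED-/- and at 0.0705 FPKM and 0 in WT. The summed level of the 6 parietal endoderm markers was 163 and 167 FPKM in WT and 758 and 736 FPKM in EED-/-. Fibroblast and feeder genes rose in 7 of 10 cases, also against 20.4%, with 0 falls and 0 stricter calls. Col1a1 was at 0.561 and 0.157 FPKM in WT and at 2.99 and 8.03 FPKM in EED-/-. Dcn and Lum, matrix proteoglycans of fibroblasts, were at most 0.0575 FPKM in every library. The summed level of 7 feeder markers was 10.3 and 4.98 FPKM in WT and 33.4 and 35.7 FPKM in EED-/-, and their part in the matrix genes was not tested.

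The Rhox genes, an X-linked homeobox cluster of germ cells and placenta, held some of the largest rises. Of 15 listed, 8 were described, 7 of those rose against 20.4% of all described genes, and 3 passed the stricter test. Rhox6 was at 1.71 and 5.11 FPKM in WT and at 429 and 194 FPKM in EED-/- (log2 difference 6.16 ± 0.39; limma adjusted p = 3.22e-06, stricter 0.00208). Rhox9, its near neighbour and close relative, was at 2.80 and 8.38 FPKM in WT and at 382 and 199 FPKM in EED-/-, and reads of the pair could be split between them. Rhox12 was listed at 0 in both WT libraries and was at 4.95 and 3.98 FPKM in EED-/-. Rhox5, the founding member, was at 13.4 and 27.1 FPKM in WT and at 541 and 288 FPKM in EED-/- (stricter 0.106). Rhox1 did not pass, at 2.00 and 5.33 against 5.58 and 3.31 FPKM. The cluster was not uniform: Rhox8 and Rhox11 stayed under 1 FPKM in all 4 libraries.

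Germline genes moved in both directions, with 6 rises and 2 falls of 20 and a median of 0.62. Over all described genes 20.4% rose and 2.94% fell. Sycp3 and Hormad1, proteins of the meiotic chromosome axis, fell from 90.7 and 43.2 FPKM to 8.76 and 6.14 FPKM and from 36.7 and 20.5 FPKM to 5.24 and 6.12 FPKM. Tex101, a germ cell surface protein, rose from 0.537 and 0.263 FPKM to 9.54 and 3.401 FPKM. Under quantile normalization 1 member rose and 3 fell. Of the genes of the 2-cell embryo stage, 5 of 9 described rose. Tcstv3, of a family active in that stage, was at 0.146 and 0.388 FPKM in WT and at 6.61 and 14.5 FPKM in EED-/- (stricter adjusted p = 0.00524). The Zscan4 genes, telomere-related zinc finger genes of nearly identical sequence, were high in 1 library: Zscan4c was at 1.58, 1.10 and 2.51 FPKM in WT 1, WT 2 and EED-/- 1 and at 43.3 FPKM in EED-/- 2. Zscan4c and Zscan4d were called in the main fit (adjusted p = 0.0497 and 0.0337), and both calls were lost without either WT library.

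Hox genes, which pattern the trunk along the head-to-tail axis, are classic PRC2 targets. Of the 38 Hox genes deposited, 17 were described, 16 rose and 2 passed the stricter test, with a median of 1.92. Of all described genes 20.4% rose, and 1.03% rose in the stricter test. Levels stayed low: Hoxa10, the member with the largest difference, was at 0.0325 and 0.0588 FPKM in WT and at 3.53 and 7.41 FPKM in EED-/-. Hoxa7 was at 0.0505 and 0.0422 FPKM in WT and at 2.43 and 3.61 FPKM in EED-/- (stricter adjusted p = 0.0254), and Hoxd8 at 0.174 and 0.063 against 3.09 and 3.38 FPKM (0.0345). Hoxb9, also rising, was at 0.271 and 0.788 FPKM in WT and at 5.62 and 5.43 FPKM in EED-/-. The member that did not pass was Hoxc13, at 4.78 and 1.45 FPKM in WT and at 2.23 and 2.72 FPKM in EED-/-. Rising members came from all 4 clusters. Cdx1, a caudal homeobox gene that activates Hox genes, went from 0.253 and 0.786 FPKM to 5.73 and 4.18 FPKM (stricter 0.015).

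Genes of the embryonic germ layers were also among those that rose. In the mesoderm and primitive streak list 7 of 12 described rose and 0 fell, where 20.4% of all described genes rose. Flt1, a receptor for VEGF on endothelium and trophoblast, was at 0.248 and 0.11 FPKM in WT and at 5.18 and 9.36 FPKM in EED-/- (limma adjusted p = 1.31e-05, stricter 0.031). The early streak genes were not among them: T and Mixl1 were under 1 FPKM in all 4 libraries. Of 40 neural regulators 11 were described and 7 rose, among them Lhx2, a forebrain homeobox gene, at 0.519 and 0.145 against 2.30 and 3.20 FPKM. Sox1 was under 1 FPKM in all 4 libraries, and 0 neural regulators passed the stricter test. Neural crest and surface ectoderm genes rose in 9 of 12 cases with 0 falls. Krt14, a keratin of basal epidermis, was at 0.0655 and 0.109 FPKM in WT and at 8.06 and 5.11 FPKM in EED-/- (stricter 0.00367). Msx2, a homeobox gene induced by BMP, was at 0.446 and 0.803 FPKM in WT and at 9.88 and 8.90 FPKM in EED-/-. Cldn4, an abundant member of that list, rose from 73.6 and 59.8 FPKM to 339 and 141 FPKM (limma adjusted p = 0.0148, stricter 0.809). The summed level of the 5 neural progenitor markers was 2.64 and 1.67 FPKM in WT and 6.06 and 7.59 FPKM in EED-/-, and that of the 5 mesoderm markers 4.32 and 3.55 against 6.36 and 6.46 FPKM. Under quantile normalization fewer passed: 4 mesoderm, 2 neural and 6 neural crest genes rose, against 14 trophoblast, 16 endoderm, 7 Rhox and 14 Hox genes.

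Genes of the pluripotency network mostly did not pass, which also held for 9692 of the 12637 genes described. Of 14 core pluripotency genes limma called 0 up and 0 down, with 1 (Lin28a) at an unadjusted p under 0.05 and a median of -0.35. Pou5f1 (Oct4) was at 648 and 1254 FPKM in WT and at 673 and 355 FPKM in EED-/-, a log2 difference of -0.88 ± 0.57. Nanog was at 114 and 267 FPKM in WT and at 236 and 235 FPKM in EED-/-, and Sox2 at 108 and 121 against 70.9 and 116 FPKM. For Pou5f1 and Nanog the groups overlapped, with the EED-/- libraries of Nanog between those of WT, and a p above the threshold does not show that levels were equal. Of 20 naive pluripotency genes 2 rose and 0 fell, where 20.4% of all described genes rose and 2.94% fell. Dppa3, a maternal factor of naive cells and germ cells also called Stella, was at 7.19 and 7.93 FPKM in WT and at 111 and 55.3 FPKM in EED-/- (3.22 ± 0.38; limma adjusted p = 0.000146, stricter 0.27). Prdm14, a repressor that guards naive pluripotency, was at 6.99 and 3.63 against 10.2 and 16.8 FPKM. Among 17 formative and primed epiblast genes, Sox3 and Lefty2 rose. Lefty2, an inhibitor of NODAL, was at 1.14 and 5.90 FPKM in WT and at 43.6 and 93.5 FPKM in EED-/-, while Nodal itself did not pass at 10.5 and 52.0 against 30.5 and 27.2 FPKM. Fgf5, the defining marker of primed epiblast, was under 1 FPKM in all 4 libraries.

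The Polycomb genes themselves include PRC2 and PRC1. In the core of PRC2 Eed rose and Rbbp4, a histone chaperone shared with other complexes, fell from 116 and 98.8 FPKM to 67.2 and 63.1 FPKM (log2 difference -0.71 ± 0.15; limma adjusted p = 0.00503, stricter 0.408). Ezh2, the main methyltransferase, was at 127 and 214 FPKM in WT and at 244 and 119 FPKM in EED-/-. Suz12 was at 77.3 and 20.1 FPKM against 31.1 and 74.4 FPKM, and in both genes the like pairs matched more closely than the genotypes did. Ezh1 was at 38.9 and 6.17 FPKM in WT and at 10.6 and 15.1 FPKM in EED-/-, Rbbp7 at 142 and 176 against 222 and 190 FPKM, and neither passed. Of 7 accessory subunits described 0 rose and 0 fell by limma, with 0 at an unadjusted p under 0.05. Of 20 PRC1 genes 10 rose, against 20.4% of all described genes. Phc2, a subunit that polymerises, passed the stricter test (7.21 and 9.47 against 39.4 and 31.7 FPKM, stricter 0.0163). Cbx2 and Cbx8, alternative readers of the PRC2 mark, rose from 5.80 and 6.04 to 14.1 and 18.96 FPKM and from 0.825 and 0.385 to 4.54 and 4.54 FPKM. Cbx7, the main reader in stem cells, did not pass at 54.6 and 67.0 against 77.4 and 155 FPKM. Under quantile normalization 5 PRC1 genes rose and 1 fell. Whether the complexes differ was not tested. Kdm6b, a demethylase that removes the PRC2 mark, rose from 4.90 and 6.81 FPKM to 8.41 and 14.8 FPKM, a call lost under quantile normalization.

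Secreted signals and their inhibitors were among the genes that rose. In the WNT list 9 of 16 rose, against 20.4% of all described genes, and Wnt4 and Wnt7a passed the stricter test. Wnt4, a ligand of kidney and gonad development, was at 0.237 and 0.179 FPKM in WT and at 13.2 and 8.40 FPKM in EED-/-. Wnt7a was at 0.05 and 0.043 FPKM in WT and at 4.76 and 3.08 FPKM in EED-/-. Axin2, a feedback target of WNT signalling, rose from 2.88 and 3.67 FPKM to 8.67 and 9.33 FPKM (limma adjusted p = 0.0111, stricter 0.861). In the BMP and TGF-beta list 12 of 24 rose, again against 20.4%. Bmp1, a protease that processes procollagens, was at 1.08 and 0.453 FPKM in WT and at 34.6 and 36.3 FPKM in EED-/- (stricter 0.0547). Bmp4 was at 2.80 and 14.5 against 23.6 and 23.2 FPKM, and its target Id1 did not pass at 23.1 and 191 against 116 and 61.7 FPKM. Among 20 FGF and ERK genes 4 rose and 1 fell, a share of rises near the 20.4% of all described genes. Fgfr2, a receptor for FGF ligands, was at 1.29 and 1.11 FPKM in WT and at 14.9 and 18.2 FPKM in EED-/-. Csf1r and its ligand Csf1, named after their values were seen, rose together: Csf1r was listed at 0 in both WT libraries and was at 8.07 and 8.78 FPKM in EED-/-, and Csf1 was at 0.0606 and 0.0715 against 17.0 and 24.3 FPKM. Both passed the stricter test (adjusted p = 0.00208 and 0.0226). Under quantile normalization 5 WNT genes rose, 7 BMP and TGF-beta genes rose and 1 fell, and 2 FGF and ERK genes rose and 1 fell.

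Of 26 imprinted genes described, which are expressed from 1 parental allele, 8 rose and 0 fell, with Igf2 alone passing the stricter test. Of all described genes 20.4% rose. Cdkn1c, a cell cycle inhibitor from a cluster near Igf2, was at 11.9 and 6.91 FPKM in WT and at 62.3 and 44.6 FPKM in EED-/-. Dlk1, a Notch-related membrane protein, rose from 1.57 and 3.09 FPKM to 18.5 and 20.1 FPKM. Sfmbt2, a Polycomb-related gene of the placenta, rose from 6.31 and 1.42 FPKM to 12.8 and 44.8 FPKM. Phlda2 and Ascl2, in the same region as Cdkn1c, did not pass. Peg10, an abundant member, did not pass either, at 9.56 and 7.0 against 122 and 277 FPKM (limma adjusted p = 0.0533). Its lowest value in EED-/- AntNPC was listed at 0, and those libraries enter the pooled spread. Of the receptors and binding proteins for IGF2, Igf1r, Igf2r and Igfbp2 did not pass, while Igfbp6 rose from 0.398 and 0.276 FPKM to 22.6 and 7.34 FPKM.

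Targets of p53 were the list that fell. Of p53 and 15 of its targets, 7 fell and 0 rose, with a median of -1.23, though 0 passed the stricter test. Under quantile normalization 10 fell. Falls over all described genes also grew, from 2.94% in the main fit to 8.29% under quantile normalization. Bbc3 (Puma), a trigger of apoptosis, was at 39.1 and 31.5 FPKM in WT and at 5.95 and 5.48 FPKM in EED-/- (log2 difference -2.43 ± 0.22; limma adjusted p = 2.75e-05, stricter 0.147). Ccng1, a cyclin induced by p53, was at 99.7 and 37.1 FPKM in WT and at 10.9 and 15.5 FPKM in EED-/-. Sesn2, a stress-induced regulator of growth, was at 25.1 and 62.6 against 8.55 and 10.5 FPKM, and Aen, an apoptotic exonuclease, at 78.4 and 101 against 41.3 and 32.2 FPKM. Eda2r, a receptor of the TNF family, was at 40.4 and 4.73 against 0.576 and 1.28 FPKM, so its size rests on WT 1. Gdf15 and Mdm2 were the others. For all 7 both EED-/- libraries were below both WT libraries, which held for each of the 371 falls and for 7.2% of all described genes. Trp53 itself, at 88.8 and 261 against 78.6 and 70.2 FPKM, and Cdkn1a (p21), at 71.7 and 33.6 against 29.0 and 19.3 FPKM, did not pass. The inhibitors of the INK4 locus, known PRC2 targets, moved the other way: Cdkn2a was at 17.0 and 20.1 FPKM in WT and at 110 and 69.7 FPKM in EED-/-, and Cdkn2b at 3.37 and 1.29 against 13.1 and 13.7 FPKM. Among 20 proliferation genes 3 rose and 0 fell, a smaller share than the 20.4% of all described genes that rose. One of the risers was Ccnd2, a D-type cyclin, from 0.38 and 0.962 FPKM to 8.76 and 23.1 FPKM.

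In the immediate early and stress list 7 of 26 rose and 2 fell, where 20.4% of all described genes rose and 2.94% fell. Fos and Fosb, subunits of the AP-1 factor, went from 4.03 and 16.7 FPKM to 71.0 and 60.3 FPKM and from 0.028 and 2.32 FPKM to 21.4 and 14.1 FPKM, and Fosb passed the stricter test (adjusted p = 0.0235). Atf3, a stress-induced factor, rose from 1.38 and 0.285 FPKM to 18.2 and 9.35 FPKM. Ddit3 and Trib3, genes of the integrated stress response, fell, and Ddit3 was at 107 FPKM in WT 1 against 14.5 FPKM in WT 2. Of 18 glycolysis genes limma called 0 in either direction, with 2 (Gpi1 and Eno1, both lower) at an unadjusted p under 0.05, and of 78 ribosomal protein genes 1 fell, Rpl39l, a testis-biased copy. The summed share of ribosomal protein genes differed between like pairs more than between genotypes, as given above.

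The largest falls did not come from a single list, though Eda2r and Bbc3 belong to the p53 list. After Mid1 came Eda2r, Sycp3, Ephx2, Dhx16, Dpys, Bbc3, Calml4, Cpt1c, Napsa, Zfp365 and Fgf17. Dhx16, an RNA helicase of splicing, was at 208 and 364 FPKM in WT and at 56.9 and 29.5 FPKM in EED-/- (log2 difference -2.72 ± 0.30; limma adjusted p = 9.47e-05, stricter 0.0159). Dpys, an enzyme of pyrimidine breakdown, was at 38.7 and 48.6 FPKM in WT and at 7.85 and 4.37 FPKM in EED-/- (stricter 0.0194). Ephx2, an epoxide hydrolase of lipid metabolism, was at 53.05 and 92.2 against 7.50 and 9.35 FPKM, and Cpt1c, a neuronal relative of carnitine palmitoyltransferase, at 37.4 and 15.7 against 4.23 and 3.76 FPKM. The 7 genes that fell in the stricter test were Mid1, Scgb1c1, Dhx16, Dpys, Piwil4, Tgm3 and Gli1, of which Scgb1c1, Piwil4, Tgm3 and Gli1 are named after their values were seen. Gli1, a transcription factor and target of Hedgehog signalling, was at 14.1 and 24.6 FPKM in WT and at 3.12 and 4.11 FPKM in EED-/- (stricter 0.046). Piwil4, a PIWI protein of germ cells, was at 4.47 and 3.05 against 0.518 and 0.514 FPKM.

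Genes of chromosomes 3, 6 and 8 were higher as a group in EED-/-. Over genes with a mean above 5 FPKM, their medians lay 0.45, 0.63 and 0.49 above the other autosomes on the log2 scale. The shifts were 0.44, 0.57 and 0.51 in the pair EED-/- 1 minus WT 2 and 0.43, 0.63 and 0.50 in EED-/- 2 minus WT 1. Both pairs thus gave nearly the same values although their libraries differ in length profile. These chromosomes held 14.6% of the genes described, 28.3% of those that rose, 6.47% of those that fell and 30.8% of the 130 stricter rises, among them Col4a2 and Hoxa7. Their part in the rise of single genes was not tested; without these chromosomes 1764 genes rose and 324 fell. The X chromosome held 18 of the 130, including Rhox6, Rhox9, Rhox12, Plac1, Esx1 and Hprt, with 442 X-linked genes described, and its median shift was -0.04.

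**Figure D5:**
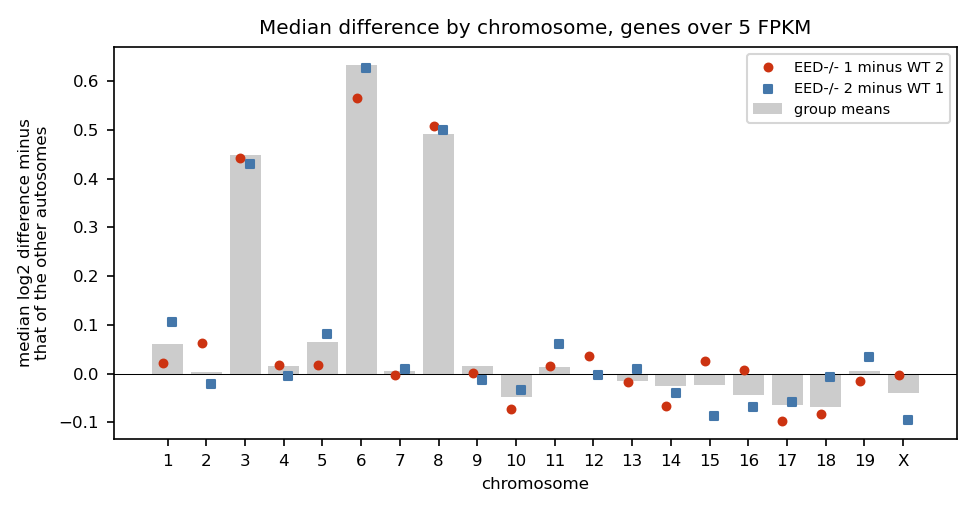
Median log2 difference, EED-/- minus WT mESC, of the genes of each chromosome with a mean above 5 FPKM, minus that of the other autosomes, for the group means (bars) and for each like pair of libraries (points). Chromosomes 3, 6 and 8 stand at 0.45, 0.63 and 0.49, with both pairs close to the bars.

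The same lines were also measured as AntNPC, in libraries of their own. Of the 130 stricter rises 107 were higher in all EED-/- than in all WT AntNPC libraries, as were 1489 of the 2574 rises (57.8%) and 30.5% of all genes described. Of the 371 falls 126 (34%) were lower without overlap in AntNPC, against 17.9% of all genes, and of the 7 stricter falls 2 were. Those tests share a spread with the AntNPC libraries, and the lines are the same. The size of the genotype difference itself differed between mESC and AntNPC for 1762 of the 12637 genes (13.9%) by the interaction term in limma, with 1274 higher in mESC and 488 lower, and for 39 with one variance per group. Cyp26a1, a retinoic acid hydroxylase, went up in mESC (0.125 and 0.194 against 7.06 and 5.13 FPKM) and down in AntNPC (15.6 to 48.1 in WT against 0.851 to 1.65 FPKM). Fgfr2 rose in mESC and was lower in EED-/- AntNPC, at 27.2 to 33.7 FPKM against 82.1 to 127 FPKM in WT (interaction adjusted p = 1.61e-05, stricter 0.0279). Igf2 was higher in EED-/- of both cell types, by 8.11 in mESC and 3.42 in AntNPC on the log2 scale.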

How the data were processed

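Per the submitters' processing notes, the authors aligned reads to GRCm38 (mm10) with TopHat2 and deposited 1 table of FPKM per gene, made with Cufflinks; no source used here gives versions or the annotation. The deposited header does not name the unit. The authors' mean FPKM per group, their mean read counts (a normalized signal), a p-value and a fold change for AntNPC were not used. Columns were matched to samples by name, with 0 left unused, and the replicate without a number was taken as replicate 1.

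Depth was estimated at 32220000 to 40790000 fragments per mESC library, from the value of 1 fragment in 3217 single-transcript genes; it is approximate, and no counting interval is given. A value listed at 0 can be a failed estimate. Values were transformed as log2(FPKM + 1). The 13678 genes reaching 1 FPKM in 2 or more of the 12 libraries were fitted by limma-trend (limma 3.58.1 under R 4.3.3) with 4 group means, two-sided, with Benjamini-Hochberg adjustment over all of them, 8 residual and 2.93 prior degrees of freedom. Results are described for the 12637 genes reaching that level in 2 or more mESC libraries. "Stricter" is the same fit with one variance per group (arrayWeights). The fit was tested on simulated data: with unequal spread between groups the pooled spread gave false calls, hence the stricter values beside it.

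Gene positions are from GENCODE M21 (GRCm38), which matched 21149 IDs. Promoters matched 9848 of the described genes (77.9%, under the 80% needed), so no CG content is given for gene sets. The members, the 33 lists and the tests were chosen with earlier results of these data known. Named are the PRC2 core, the 12 largest rises and falls (groups not overlapping, higher mean at least 5 FPKM, no predicted or RNA genes), up to 4 members per list and direction by adjusted p (all where at most 5 passed), the 2 most abundant members, all markers, and 6 genes per direction for the interaction. Some results are not reported here. Further list members are named as examples, chosen after their values were seen. Alternatives were other pseudocounts, filters, scalings, spreads, blocks and left-out libraries or chromosomes. In mESC, deviations from the group means of same-numbered replicates correlated at -0.681, and of oppositely numbered ones at 0.681; with 2 per group these are one value.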

Additional observations from a re-analysis of the deposited data

Results flagged for a closer look

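The difference between the genotypes was itself different in mESC and in AntNPC, by the interaction term in limma, for 1762 genes (13.9%). Of these, 12 are given, taken by size among genes whose WT and EED-/- libraries did not overlap in mESC and with a group mean of at least 5 FPKM. The 6 furthest above zero in that selection, as the log2 difference EED-/- minus WT in mESC minus that in AntNPC, were Cyp26a1 at 5.99 ± 0.56 (SE; limma adjusted p = 0.00012), Wnt7b at 5.31, Thbs1 at 4.74, Igf2 at 4.70, Fgfr2 at 4.58 and Sept4 at 4.54. Wnt7b, a WNT ligand, was at 2.90 and 4.38 FPKM in WT and at 29.5 and 13.7 FPKM in EED-/- mESC, while AntNPC had 7.48 to 20.5 FPKM in WT and 0.816 to 1.06 FPKM in EED-/-. Thbs1, a matrix glycoprotein, was at 6.33 FPKM in EED-/- 1 and at 46.7 FPKM in EED-/- 2, against 0.152 and 0.222 FPKM in WT mESC. Sept4, a septin, went from 0.766 and 1.81 FPKM to 31.5 and 14.2 FPKM in mESC, with 13.0 to 16.8 FPKM in WT AntNPC and 3.12 to 7.73 FPKM in EED-/- AntNPC.

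In the same selection the 6 furthest below zero were Gpx2 at -3.90, Calca at -3.64, Ifitm1 at -3.63, Pcolce at -3.28, Dpys at -3.27 and Ano9 at -3.21. Calca, the gene of calcitonin, was at 44.1 and 44.8 FPKM in WT and at 9.93 and 8.56 FPKM in EED-/- mESC, and at 5.14 to 13.2 against 18.7 to 25.5 FPKM in AntNPC. Ifitm1, an interferon-induced membrane protein, was at 337 and 954 against 184 and 101 FPKM in mESC and at 15.7 to 20.03 against 48.1 to 66.9 FPKM in AntNPC. Gpx2 and Ano9 did not pass in mESC itself (limma adjusted p = 0.0853 and 0.163). Of these 12 genes Fgfr2 and Dpys passed the interaction test with one variance per group (limma adjusted p = 0.0279 and 0.0212). Replicate values of mESC could not be checked for outliers, since each group has 2 libraries.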

How the results depend on the processing

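Counts are given as rose, fell and interaction, against 2574, 371 and 1762. No filter on low values gave 2653 interactions, over 18975 genes. The mESC libraries alone gave 0 and 0. Quantile normalization gave 1202 and 1048, and median-of-ratios scaling 1501 and 1024 (59.5% rises; median of all genes -0.06). One variance per group gave 130, 7 and 39. Leaving out single libraries gave 2295 to 3751, 310 to 1324 and 1669 to 3941, with 709 falls and 2896 interactions without WT 1 and 1324 and 3941 without WT 2; a lone library is then assumed to vary like the other groups. The replicate block, where mESC numbers do not pair the libraries, gave 1671, 190 and 870. A crossed replicate block, chosen after seeing the data, gave 4340, 984 and 3938. The other pseudocounts, the filter on mESC libraries, the fit without ribosomal protein genes and that without AntNPC replicate 1 or chromosomes 3, 6 and 8 kept all 3 counts within 1.5 times.

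The shift of chromosome 3 was 0.42 over genes above 1 FPKM. Of 194 named genes, 2 reversed: Fgf1 to -0.015 under quantile normalization (adjusted p = 0.96) and Ezh1, not called before, to 0.93 without WT 1 (adjusted p = 0.0167; range over left-out libraries -1.54 to 0.93). One variance per group ended 105 calls or kept them below the threshold, and mESC alone 139. Calls lost were 19 without EED-/- 2, among them Sycp3, Col1a1 and Prdm14, 11 without WT 1, 6 without EED-/- 1, among them Eda2r and S100a6, and 5 without WT 2. The promoter alternative gave no value, since too few promoters matched. Depth limits genes near 1 FPKM, while the rise of Zscan4c rests on 1 library, EED-/- 2.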
